A study of Sus scrofa with 7 samples.

Results

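Fatty acids are the main fuel of the healthy heart. They are released from lipoproteins at the capillary wall, carried into the muscle cell, joined to coenzyme A, passed through the mitochondrial membranes on carnitine and shortened by the repeating cycle of beta-oxidation, whose electrons enter the respiratory chain through the electron transfer flavoprotein. Failing and infarcted hearts are known for lower use of this fuel, and receptors of the PPAR family are known to drive many of the genes. The set described here holds 35 genes of fatty acid uptake and oxidation, picked by gene symbol. Of these, 34 had a row in the deposited table of 20653 genes, and 33 had enough reads to be tested. ACOT2 is not analysed here, and UCP3 lay under the filter on low values, which asked for 10 or more normalized counts in 3 or more libraries.

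RNA was sequenced from heart muscle of male farm pigs, taken in the anteromidventricular region 14 weeks after an infarct in the territory of the left circumflex artery. The 4 libraries labelled S100a1 came from pigs given AAV5, an adeno-associated virus vector, carrying the human form of S100A1, which binds calcium and acts in the contraction of cardiomyocytes. The 3 libraries labelled hrLuc came from pigs given AAV5 carrying luciferase, a reporter enzyme. The titles name each library as a pig, and all pigs of both groups had the infarct and the same vector serotype. The sources used here do not give the promoter of the vector, its dose or route, or the ages of the pigs. An infarcted heart without vector and a heart without infarct are not analysed here.

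The libraries held 29002003 to 38409552 reads in S100a1 and 28679324 to 32967156 in hrLuc, with 1 transcript row kept per gene. The pig S100A1 gene averaged 5933 ± 1064 normalized counts in S100a1 (SD, n = 4) and 7718 ± 1298 in hrLuc (SD, n = 3). Its log2 fold change was -0.39 ± 0.16 (SE, adjusted p = 0.577 in limma). How far this pig row also counts reads from the delivered human gene was not tested, so its level cannot check the labels. Of the 13 cardiomyocyte markers listed, 12 had a row and none of those 12 was at 0, and their summed level was 4864554 to 6133550.3 in S100a1 and 4675255 to 5269671 in hrLuc. The summed levels of the groups overlapped for all 8 marker lists. Fibroblast markers summed to 89959 to 145032 in S100a1 and 138689 to 161311 in hrLuc, and 7 of 8 had a negative log2 fold change. T cell markers summed to 273 to 442 in S100a1 and 401 to 838 in hrLuc. All 7 had a negative log2 fold change (median -0.80). In limma 3 of the 7 had an unadjusted p under 0.05, against 8.26% of all genes tested, and none an adjusted p under 0.05. The authors' deposited table lists 1 of them at an adjusted p under 0.05, against 0.661% of genes. All 6 smooth muscle and pericyte markers were negative too (median -0.36). Cardiomyocyte markers were positive in 7 of 12 and adipocyte markers in 6 of 7. The authors' deposited table also lists 1 of these 12 cardiomyocyte markers at an adjusted p under 0.05 (0.0412). In limma the unadjusted p was under 0.05 for 2 of 8 fibroblast and 1 of 12 cardiomyocyte markers. The same held for 1 of 7 adipocyte and 1 of 10 endothelial markers. The part of these cells in the results below was not tested. In tissue, fewer cells of a type and less RNA per cell cannot be told apart.

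None of the 33 tested fatty acid genes passed the threshold of an adjusted p of 0.05 in either direction (limma, Benjamini-Hochberg over 15661 genes), where 0.0128% of all genes tested passed (0.00639% higher and 0.00639% lower in S100a1). At an unadjusted p under 0.05 there was 1 member, ACACB, against 8.26% of all genes tested. edgeR, DESeq2 and limma-voom on the recovered reads also called 0 members, where they called 0.0128%, 0.568% and 0% of all genes tested. Each had 2 members, ACACB and ETFB, at an unadjusted p under 0.05, against 8.51% of all genes tested by edgeR, 8.66% by DESeq2 and 8.16% by limma-voom. The authors' deposited table lists none of the 33 genes at an adjusted p under 0.05, where it lists 0.661% of the genes that have an adjusted p there. In no member did the values of the S100a1 libraries stand fully apart from those of the hrLuc libraries, and groups that do not overlap were seen in 9.27% of all genes tested (3.96% with S100a1 higher). A positive log2 fold change of S100a1 over hrLuc, on the log2(value + 0.5) scale used throughout, was found in 21 of the 33 genes, against 43.5% of all genes tested. Their median was 0.052, and the median of all genes tested was -0.024. With quantile normalization these medians were 0.014 and -0.0030. With median centring, 27 of the 33 genes were positive, against 56.4% of all genes tested, and the medians were 0.099 and 0.023. The difference between the medians was 0.076 both in the main fit and with median centring, and 0.017 with quantile normalization.

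The fold changes were small and fairly tightly bounded. They ran from -0.13 for LPL to 0.38 for ACACB. For 30 of the 33 genes the 95% interval of the log2 fold change lay within -0.5 and 0.5, a change of at most 1.41-fold either way, as did 61.4% of all genes tested. The exceptions were ACACB, MLYCD and ECI2. For all 33 genes the interval lay within -1 and 1. These intervals hold for 1 gene at a time and are not adjusted for the number of genes. The share of all genes tested was not matched for level. The 33 genes had means of 212 to 29780 counts, while the filter asked for 10 in 3 or more libraries.

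**Figure D1:**
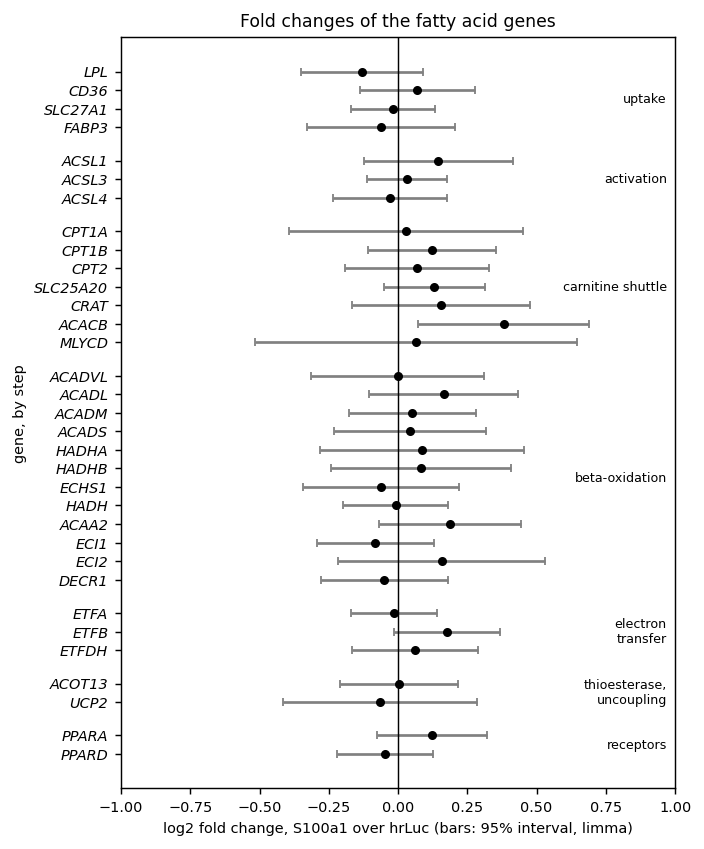
Log2 fold change of S100a1 over hrLuc (horizontal axis) for the 33 tested genes, ordered by step, with the 95% interval of the limma fit as bars. ACACB at 0.38 is the gene farthest from 0, and its interval is the 1 interval that leaves out 0.

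The uptake genes showed no difference that passed the test, and the log2 fold change was below 0 for 3 of the 4 (median -0.040). LPL encodes lipoprotein lipase, which frees fatty acids from circulating triglyceride at the capillary wall (Sscrofa11.1, chromosome 14, 4104761 to 4134964). Its normalized read counts were 28427, 29219.6, 27829 and 28785 in the 4 S100a1 libraries, against 29783, 28362 and 36055 in the 3 hrLuc libraries. The S100a1 hearts lay close together, and hrLuc replicate 3 stood above all other libraries. The log2 fold change was -0.13 ± 0.097 (SE, adjusted p = 0.724 in limma), and it was -0.025 without hrLuc replicate 3. The table has 2 rows for LPL, with means of 29780.0 and 15723, for which the authors' deposited table gives log2 fold changes of -0.14 and -0.11.

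CD36, the fatty acid translocase of the cell membrane, had 29584, 25526, 24654 and 27866 counts in S100a1 libraries, against 23989.6, 25889 and 26907 in hrLuc libraries. The groups overlapped, and the highest value came from S100a1 replicate 1 (log2 fold change 0.070 ± 0.091, adjusted p = 0.839 in limma). Its 11 transcript rows had means between 21395 and 26345, and their log2 fold changes in the authors' deposited table ran from 0.046 to 0.087. FABP3, the fatty acid binding protein of the muscle cytosol, averaged 9462 ± 479.6 in S100a1 and 9986 ± 1867 in hrLuc (log2 fold change -0.062). SLC27A1, a transport protein with acyl-CoA synthetase activity, averaged 3729 ± 43.3 in S100a1 and 3784 ± 284 in hrLuc (-0.018). Endothelial cells also express CD36, and the summed level of 10 endothelial markers was 27435 to 30311 in S100a1 and 27905 to 32714 in hrLuc. LPL is also abundant in adipocytes, whose 9 markers summed to 10542 to 14173 in S100a1 and 9136 to 12307 in hrLuc. Most of that sum was PLIN4, with 7867 to 11854 in S100a1 and 7460 to 10520.0 in hrLuc. ADIPOQ had 71.7 to 884 counts in S100a1 and 147.5 to 516 in hrLuc, and PLIN1 had 15.7 to 119 in S100a1 and 46.0 to 110.1 in hrLuc. LEP and PCK1 lay under the filter on low values. The part of these cells in the values was not tested.

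Activation to acyl-CoA is carried out by long-chain acyl-CoA synthetases, of which ACSL1 is the main form of heart muscle. ACSL1 (chromosome 15, 45866858 to 45936327) had 12331, 10691, 10978 and 10468 counts in S100a1 libraries, against 9344, 8811 and 12266 in hrLuc libraries. hrLuc replicates 1 and 2 lay below every S100a1 library, whereas hrLuc replicate 3 lay among the highest. The log2 fold change was 0.15 ± 0.12 (adjusted p = 0.745 in limma), 0.051 without hrLuc replicate 2, and 0.29 without hrLuc replicate 3 (adjusted p = 0.611 in limma). ACSL3, a synthetase of the endoplasmic reticulum and lipid droplets, had 1130.2, 1122, 1182 and 1099 counts in S100a1 libraries, against 1111, 1135 and 1076 in hrLuc libraries. This was the steadiest gene of the 33, with a pooled coefficient of variation of 2.95% within groups, and its log2 fold change was 0.033 ± 0.064 (adjusted p = 0.899 in limma). ACSL4, which prefers arachidonic acid, had 2426, 2709, 2587 and 2268 counts in S100a1 libraries, against 2616, 2266 and 2772 in hrLuc libraries. Its groups covered almost the same range (log2 fold change -0.029 ± 0.091, adjusted p = 0.937 in limma).

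In the carnitine shuttle and its control by malonyl-CoA all 7 log2 fold changes were positive, against 43.5% of all genes tested. Their median was 0.12, the lowest was 0.028 for CPT1A, and none passed the test. ACACB encodes the acetyl-CoA carboxylase of the mitochondrial surface, which makes malonyl-CoA, the inhibitor of carnitine palmitoyltransferase 1 (chromosome 14, 41621574 to 41739916). Its counts were 12720.4, 9821, 9506 and 10819 in S100a1 libraries, against 8316, 6806 and 9642 in hrLuc libraries. The groups overlapped only in that hrLuc replicate 3 lay above S100a1 replicate 3. ACACB had the largest fold change of the set, 0.38 ± 0.14 on the log2 scale (95% interval 0.072 to 0.69), with an unadjusted p of 0.0211 and an adjusted p of 0.553 in limma. Permuting its 7 values over all splits gave an exact two-sided p of 0.0571, where 0.0286 is the smallest that 35 splits allow. The log2 fold change was 0.25 without hrLuc replicate 2, which had the lowest value, and 0.50 without hrLuc replicate 3. Without S100a1 replicate 1, which had the highest value, it was 0.30. The adjusted p of ACACB ran from 0.247 (DESeq2) to 0.927 (without hrLuc replicate 1, limma) over the alternatives, and the authors' deposited table gives it an adjusted p of 0.279.

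MLYCD, malonyl-CoA decarboxylase, breaks down the product of ACACB, and its values scattered most among the 33 tested genes. It had 511, 397, 504 and 854 counts in S100a1 libraries, against 389, 622 and 579 in hrLuc libraries. S100a1 replicate 4 was the highest and hrLuc replicate 1 the lowest, and the pooled coefficient of variation was 31.0%. With a log2 fold change of 0.066 and a 95% interval of -0.52 to 0.65, these libraries bound a change of MLYCD less well than that of any other of the 33 tested genes. SLC25A20, the carnitine-acylcarnitine translocase of the inner membrane, had 963, 976, 886 and 1022 counts in S100a1 libraries, against 853, 837 and 946 in hrLuc libraries. Its S100a1 values were mostly higher, with hrLuc replicate 3 inside their range (log2 fold change 0.13 ± 0.081, adjusted p = 0.659 in limma). It stayed positive over every alternative run, between 0.097 and 0.19. So did ACACB, CPT1B, CPT2 and CRAT of this step, and genes of other steps such as ACSL1, ACAA2 and ETFB. CPT1A and MLYCD each changed sign in 3 of 21 alternative runs.

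CPT1B, the muscle form of carnitine palmitoyltransferase 1 and the entry point of the shuttle, averaged 12114 ± 1277 counts in S100a1 and 11130.2 ± 1149 in hrLuc (log2 fold change 0.12, with 0.053 without S100a1 replicate 1 and 0.20 without hrLuc replicate 3). Its highest value, 13918, came from S100a1 replicate 1, which was also highest for ACACB. CPT1A, the form best known from liver, averaged 316 ± 76.2 in S100a1 and 304 ± 30.2 in hrLuc (0.028). It spanned 229 in S100a1 replicate 4 to 411 in S100a1 replicate 1, so that the S100a1 group alone held both extremes. CPT2, which rebuilds acyl-CoA inside the mitochondrion, averaged 1010.0 ± 122 in S100a1 and 961 ± 104 in hrLuc (0.069, with 0.011 without S100a1 replicate 1 and 0.16 without hrLuc replicate 3). CRAT, carnitine acetyltransferase, which exports surplus acetyl groups, averaged 7384 ± 1245 in S100a1 and 6611 ± 1001 in hrLuc (0.16, with 0.055 without S100a1 replicate 2 and 0.28 without hrLuc replicate 3). Its highest value, 8993, came from S100a1 replicate 2.

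**Figure D2:**
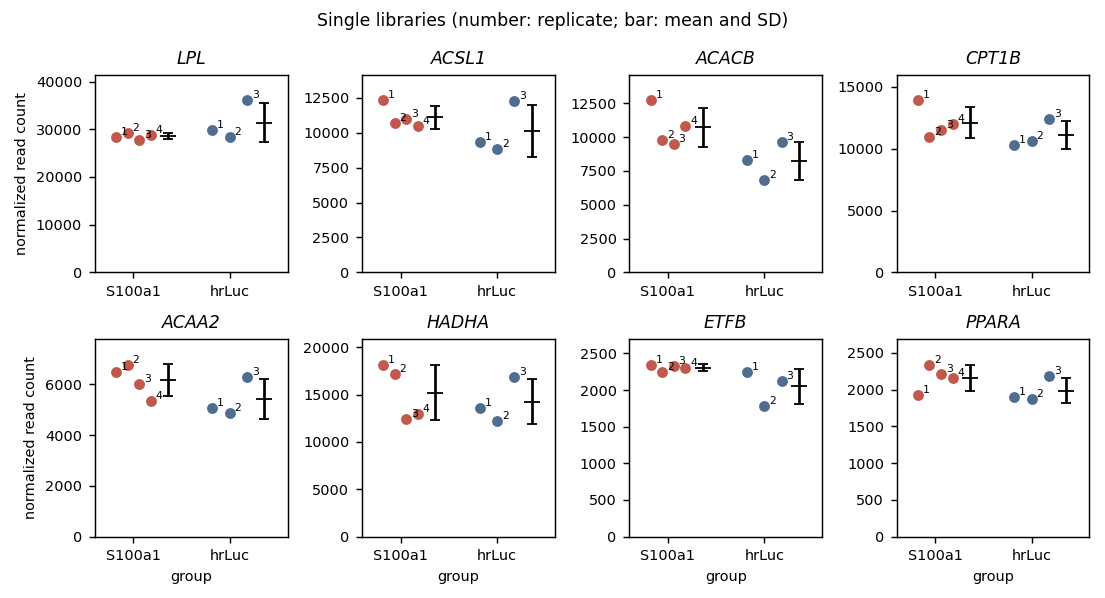
Normalized read counts (vertical axes, from 0) of 8 fatty acid genes in S100a1 (red, 4 libraries) and hrLuc (blue, 3 libraries). Digits give the replicate, and black marks the mean and SD. In each panel the groups overlap, and hrLuc replicate 3 is the highest hrLuc library except for ETFB.

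Of the 12 beta-oxidation genes, 7 had a log2 fold change above 0 and 5 had one below 0 (median 0.048), and none passed the test. ACAA2, the mitochondrial thiolase that releases acetyl-CoA (chromosome 1, 99284467 to 99310759), had the smallest p of the step. Its counts were 6500.5, 6785, 6008 and 5341 in S100a1 libraries, against 5083, 4878 and 6309 in hrLuc libraries. hrLuc replicates 1 and 2 lay below every S100a1 library and hrLuc replicate 3 lay above S100a1 replicates 3 and 4 (log2 fold change 0.19 ± 0.11, adjusted p = 0.654 in limma). ACADL, the long-chain acyl-CoA dehydrogenase, had 6443, 6172, 5629 and 5607 counts in S100a1 libraries, against 4419, 5306 and 6380.2 in hrLuc libraries. Again hrLuc replicates 1 and 2 lay below every S100a1 library, and hrLuc replicate 3 was second only to S100a1 replicate 1 (log2 fold change 0.16 ± 0.12, adjusted p = 0.711 in limma). Without hrLuc replicate 3 the log2 fold changes were 0.30 for each of ACAA2 and ACADL, with unadjusted p of 0.0203 and 0.0187 (adjusted p = 0.611 for each, limma). Without hrLuc replicate 2 ACAA2 was at 0.12, and without hrLuc replicate 1 ACADL was at 0.033.

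The other acyl-CoA dehydrogenases open the cycle for fatty acids of other lengths, and their means were nearly level. ACADVL, for very long chains, averaged 11923 ± 1384 in S100a1 and 12016 ± 2391 in hrLuc, with the highest value, 14753, in hrLuc replicate 3. ACADM, for medium chains, averaged 8619 ± 965 in S100a1 and 8299 ± 768 in hrLuc (log2 fold change 0.052). ACADS, for short chains, averaged 2379 ± 185 in S100a1 and 2329 ± 445 in hrLuc (0.044). ACADVL overlaps DLG4, DVL2 and MIR324, so its row can hold reads of those genes.

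HADHA and HADHB encode the alpha and beta subunits of the mitochondrial trifunctional protein, which carries out the later reactions of the cycle on long chains. They are neighbours on chromosome 3, HADHB from 112712894 to 112753121 and HADHA from 112753343 to 112797627, with 221 bases between them. HADHA had 18169, 17145, 12438 and 12950.5 counts in S100a1 libraries, against 13564, 12239.8 and 16869 in hrLuc libraries. The libraries fell into high and low values inside each group, S100a1 replicates 1 and 2 being high and replicates 3 and 4 low. HADHB had 26737, 27169, 19201 and 21007 counts in S100a1 libraries, against 22407, 19424 and 24354 in hrLuc libraries, with the same S100a1 replicates high. The ratio of HADHA to HADHB counts was 0.680, 0.631, 0.648 and 0.616 in S100a1 libraries, against 0.605, 0.630 and 0.693 in hrLuc libraries. This ratio is not corrected for transcript length, and it varied less between libraries than either gene did. The log2 fold changes were 0.087 ± 0.16 for HADHA and 0.083 ± 0.14 for HADHB (adjusted p = 0.894 and 0.885, limma). HADHB overlaps LOC106509870.

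ECHS1, the short-chain enoyl-CoA hydratase, averaged 4434 ± 469.8 in S100a1 and 4654 ± 765 in hrLuc (log2 fold change -0.063). HADH, the dehydrogenase for shorter hydroxyacyl chains, averaged 9744 ± 420.3 in S100a1 and 9831 ± 1053 in hrLuc (-0.0085). ECI1, ECI2 and DECR1 prepare unsaturated fatty acids for the cycle. The isomerase ECI1 averaged 3582 ± 174 in S100a1 and 3812 ± 529 in hrLuc (-0.082), and its highest value, 4423, was in hrLuc replicate 3. The isomerase ECI2 averaged 4755 ± 724 in S100a1 and 4299 ± 999 in hrLuc (0.16). Leaving out hrLuc replicate 2 gave 0.016 for ECI2, and leaving out hrLuc replicate 3 gave 0.34. The reductase DECR1 averaged 5852 ± 590.0 in S100a1 and 6061 ± 693 in hrLuc (-0.050). ECI1 overlaps E4F1 and DNASE1L2, and ECI2 overlaps LOC110261764.

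Electron transfer takes the electrons of the acyl-CoA dehydrogenases to ubiquinone, through the flavoprotein subunits ETFA and ETFB and the oxidoreductase ETFDH. ETFB (chromosome 6, 58501892 to 58517580) had 2349, 2249.9, 2335 and 2296 counts in S100a1 libraries, against 2251, 1787 and 2118 in hrLuc libraries. The S100a1 values spread little, and hrLuc replicate 1 lay just above the lowest of them, so that the groups overlapped by this 1 library. The log2 fold change was 0.18 ± 0.084 (unadjusted p = 0.0657 and adjusted p = 0.614 in limma). Permuting the library labels gave an exact two-sided p of 0.0571. Without hrLuc replicate 2, the lowest library, it was 0.080. ETFA, the partner subunit, had 5304, 5703, 5972 and 5988 counts in S100a1 libraries, against 5562, 5782 and 6039 in hrLuc libraries. Its groups covered nearly the same range (log2 fold change -0.014 ± 0.068, adjusted p = 0.963 in limma). ETFDH had 8724, 8273, 7759 and 7909 counts in S100a1 libraries, against 6874, 7583 and 9173 in hrLuc libraries. The hrLuc libraries held both the lowest and the highest value (log2 fold change 0.061 ± 0.10, adjusted p = 0.879 in limma). ETFDH overlaps C8H4orf46.

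ACOT13, a mitochondria-associated thioesterase that frees fatty acids from coenzyme A, had 3844, 4097, 4245 and 3569 counts in S100a1 libraries, against 4019, 3457 and 4338 in hrLuc libraries. The S100a1 range lay inside the hrLuc range (log2 fold change 0.0036 ± 0.094, adjusted p = 0.994 in limma), and the gene overlaps C7H6orf62. UCP2, a mitochondrial carrier of the uncoupling protein family, had 209, 225, 180.4 and 216 counts in S100a1 libraries, against 243, 172 and 242 in hrLuc libraries. Again the S100a1 range lay inside that of hrLuc (log2 fold change -0.066 ± 0.15, adjusted p = 0.916 in limma). UCP2 overlaps DNAJB13 and is widely expressed in macrophages, whose 8 markers summed to 6084 to 9718 in S100a1 and 6809.5 to 10539 in hrLuc, and their part was not tested. UCP3, the muscle form, lies 13470 bases from UCP2 on chromosome 9. It had 13, 4, 8 and 8 reads in S100a1 libraries, against 5, 6 and 6 in hrLuc libraries. Its pooled coefficient of variation was 42.5%, and at this depth a difference in UCP3 could not be resolved.

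The nuclear receptors PPARA and PPARD bind fatty acids and switch on genes of their oxidation. PPARA (chromosome 5, 3302755 to 3321091) had 1926, 2339.9, 2207 and 2162 counts in S100a1 libraries, against 1902, 1868 and 2178 in hrLuc libraries. Of the S100a1 hearts, replicate 1 stood at the level of the lower hrLuc hearts, and the other 3 were close to hrLuc replicate 3 or above it (log2 fold change 0.12 ± 0.087, adjusted p = 0.710 in limma). PPARD had 1091, 1146, 1223 and 1244 counts in S100a1 libraries, against 1189, 1293 and 1161 in hrLuc libraries. The groups overlapped widely (log2 fold change -0.047 ± 0.076, adjusted p = 0.878 in limma). S100a1 replicate 1 had the lowest PPARD value of all libraries, although it was the highest library for 10 of the 33 genes.

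Within each group the hearts differed, and many of the genes ranked them alike. For 27 of the 33 genes the highest of the 3 hrLuc libraries was replicate 3, as it was for 36.8% of all genes tested. All 12 beta-oxidation genes and all 4 uptake genes were among them. For 13 of the 33 genes, or 39.4%, hrLuc replicate 3 was the highest of all 7 libraries, against 19.1% of all genes tested. In 15 genes, or 45.5%, hrLuc replicate 2 was the lowest of all, against 14.0% of all genes tested, and in 9 it was hrLuc replicate 1. The S100a1 values of 10 genes, or 30.3%, lay inside the range of the hrLuc values, against 13.7% of all genes tested. These counts describe the libraries and were not tested, since genes of 1 heart are not independent.

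**Figure D3:**
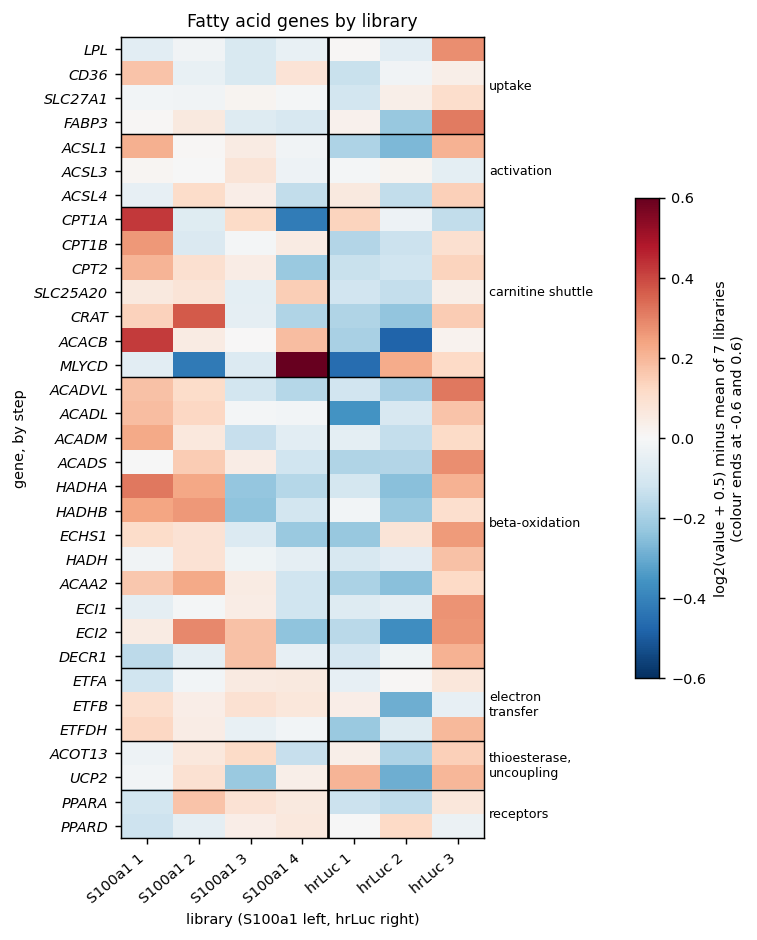
Each row is 1 of the 33 genes, ordered by step, and each column is a library, S100a1 on the left and hrLuc on the right. Colour gives log2(value + 0.5) minus the mean of the gene over the 7 libraries. The column of hrLuc replicate 3 is mostly red (29 of 33 genes above their own mean), and the columns of hrLuc replicates 1 and 2 are mostly blue (26 and 27 of 33 below).

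Averaged over the 33 genes, the deviation from each gene's mean was 0.084, 0.060, -0.011 and -0.042 in S100a1 replicates 1 to 4, on the log2 scale. It was -0.10, -0.13 and 0.14 in hrLuc replicates 1 to 3. The S100a1 libraries therefore all lay between the hrLuc extremes. Over all genes tested the median deviation of a library was between -0.028 and 0.029. The 33 genes took 0.770%, 0.778%, 0.722% and 0.704% of the reads in S100a1 libraries, against 0.716%, 0.670% and 0.819% in hrLuc libraries. hrLuc replicate 3 was the library with the fewest reads, 28679324. Its summed level of cardiomyocyte markers, 5173740.1, lay inside the range of the other libraries, as did its sums for adipocyte, endothelial, fibroblast, macrophage, smooth muscle, T cell and skeletal muscle markers. A single marker, with a mean of 3032784, made up much of the cardiomyocyte sum, which in hrLuc was highest in replicate 2 (5269671). Of the 12 cardiomyocyte markers with a row, MYH7, MYL2, MYL3, TNNT2 and TNNI3 were each highest in replicate 3 among hrLuc libraries. The rest of the 12, summed together, were lower in hrLuc replicate 3 than in hrLuc replicate 2. For MYH7 the hrLuc counts were 998039, 962373 and 1158838 in replicates 1 to 3. S100a1 replicate 1 had the highest sums of all libraries for cardiomyocyte (6133550.3) and adipocyte markers (14173). Its sums for fibroblast (89959), macrophage (6084), T cell (273) and skeletal muscle markers (122607) were the lowest. The part of cardiomyocyte content and of other cells in the order of the libraries was not tested.

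The steps did not all follow the same order of libraries. For beta-oxidation the mean deviation was 0.10, 0.13, -0.028 and -0.12 in S100a1 replicates 1 to 4, against -0.14, -0.15 and 0.21 in hrLuc replicates 1 to 3. S100a1 replicate 4 was thus close to the lower hrLuc libraries in this step. For the carnitine shuttle the deviations were 0.21, 0.00075, -0.0071 and 0.033 in S100a1, against -0.16, -0.13 and 0.059 in hrLuc, and here hrLuc replicate 3 lay below S100a1 replicate 1. For electron transfer they were 0.035, 0.024, 0.033 and 0.035 in S100a1, against -0.077, -0.12 and 0.072 in hrLuc. The S100a1 libraries were almost level in that step, and the hrLuc libraries lay on both sides of them. For uptake they were 0.025, -0.0061, -0.062 and -0.017 in S100a1, against -0.053, -0.070 and 0.18 in hrLuc.

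**Figure D4:**
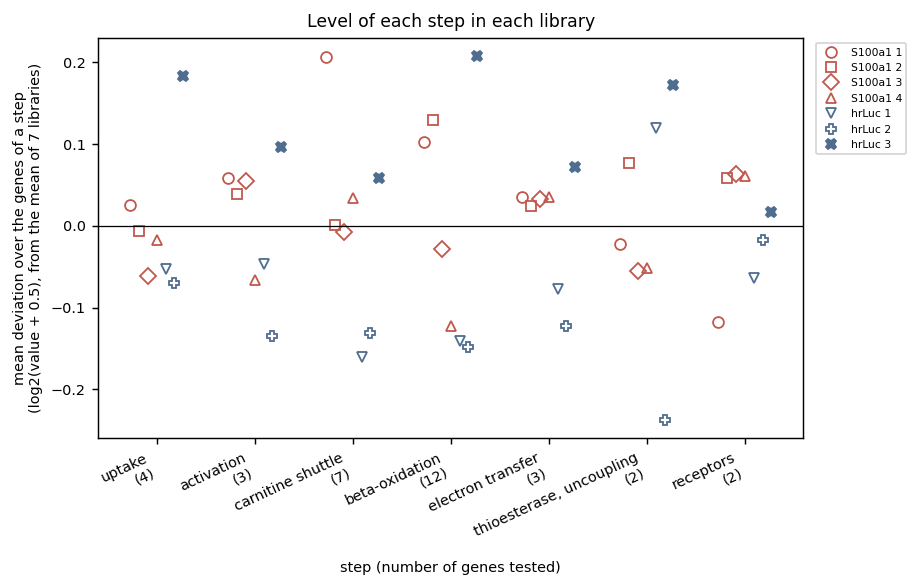
Mean deviation of the tested genes of each step (vertical axis, log2 scale, from the mean of the 7 libraries) for each library, S100a1 in red and hrLuc in blue, with the number of genes under each step. The filled cross of hrLuc replicate 3 is the highest point for uptake, activation, beta-oxidation, electron transfer and the thioesterase and uncoupling step, and S100a1 replicate 1 is the highest for the carnitine shuttle.

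The median log2 fold change of the 33 genes depended on single hrLuc libraries, as well as on the scaling given above. It was 0.14 without hrLuc replicate 3, with 30 of 33 genes positive. Without hrLuc replicate 2 it was -0.0010, with 16 of 33 positive, and without hrLuc replicate 1 it was 0.022. With each S100a1 library left out it ran from 0.016 to 0.076. The carnitine shuttle kept a positive median with every library left out, between 0.092 and 0.19. The median of beta-oxidation ran from -0.023 to 0.16, and that of uptake from -0.10 to 0.052.

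**Figure D5:**
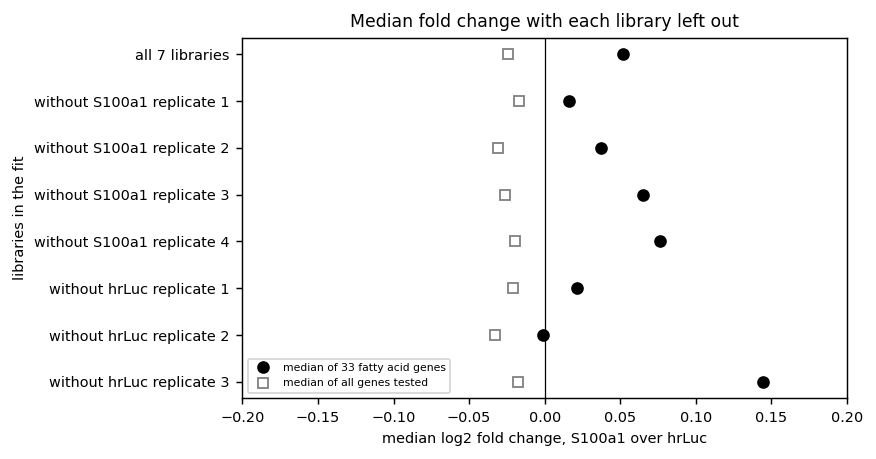
Median log2 fold change of S100a1 over hrLuc (horizontal axis) for the 33 fatty acid genes (filled circles) and for all genes tested (open squares), with all 7 libraries and with each library left out. The median of the 33 genes is 0.14 without hrLuc replicate 3 and -0.0010 without hrLuc replicate 2, while that of all genes stays between -0.033 and -0.017.

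A further 57 genes of the pathway outside the set were listed, of which 55 were tested, and none passed the threshold in limma in either direction (9 at an unadjusted p under 0.05, or 16.4%, against the 8.26% of all genes tested). The smallest p among regulators and PPAR targets were those of ESRRG, an orphan nuclear receptor of oxidative metabolism, and PDK4, a pyruvate dehydrogenase kinase that spares glucose. Groups that do not overlap were seen in 5 of the 55 genes, or 9.09%, against 9.27% of all genes tested. ESRRG averaged 15621 ± 2783 counts in S100a1 and 9852 ± 1564 in hrLuc without overlap (log2 fold change 0.66 ± 0.16, adjusted p = 0.467 in limma). The log2 fold change of ESRRG was 0.30 with its lowest transcript row and 0.64 with its middle row. PDK4 averaged 1129 ± 323 in S100a1 and 631 ± 108 in hrLuc, overlapping by S100a1 replicate 3 (0.80 ± 0.22, adjusted p = 0.514 in limma). The authors' deposited table gives these genes adjusted p of 0.0113 and 0.0354, and they are the 2 of the 55 under 0.05 there. On the recovered reads they were also the 2 genes of the 55 that DESeq2 called (adjusted p = 0.0151 and 0.0332), where it called 0.568% of all genes tested. edgeR called 0 (adjusted p = 0.488 and 0.490 for them) and limma-voom 0. edgeR and limma-voom each had 10 of the 55 at an unadjusted p under 0.05, against 8.51% and 8.16% of all genes tested. Of the 12 genes in this list 11 had a positive log2 fold change (median 0.25), and the list was drawn up with earlier results of these data known. Unlike most of the 33 genes, ESRRG and PDK4 had their lowest value in hrLuc replicate 3.

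Among other genes of transport, FABP4, the binding protein of adipocytes and capillary endothelium, averaged 1151 ± 97.3 in S100a1 and 936 ± 70.8 in hrLuc without overlap (log2 fold change 0.30, adjusted p = 0.534 in limma). CPT1C, the brain form of carnitine palmitoyltransferase 1, averaged 19.4 ± 10.6 in S100a1 and 35.3 ± 4.46 in hrLuc (-1.01, adjusted p = 0.582 in limma). It rested on 9 to 38 reads per library, and the groups overlapped. The log2 fold change of CPT1C was -0.75 without S100a1 replicate 1 and -1.29 without S100a1 replicate 3. Of 17 further oxidation enzymes tested, 12 had a positive log2 fold change. Among them ACADSB, a dehydrogenase of branched short chains, averaged 8155 ± 427 in S100a1 and 7325 ± 618 in hrLuc (0.16, adjusted p = 0.618 in limma). Of 13 genes of lipid droplets and triglyceride 8 were positive. The lipogenic enzyme SCD had 129.9, 243, 171 and 359 counts in S100a1 libraries, against 2651, 743 and 343 in hrLuc libraries. Its large log2 fold change of -2.06 ± 0.61 (adjusted p = 0.534 in limma) went with a wide spread in hrLuc, and S100a1 replicate 4 lay above hrLuc replicate 3. FASN, fatty acid synthase, averaged 1971 ± 357 in S100a1 and 3191 ± 1555 in hrLuc (-0.61, adjusted p = 0.604 in limma), with hrLuc replicate 1 highest for both lipogenic genes. Without that library the log2 fold change was -0.24 for FASN and -1.27 for SCD.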

How the data were processed

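RNA of 7 pig hearts was compared, with groups and replicate numbers taken from the sample titles. The values that were deposited for each library are a signal: reads per transcript, scaled by a size factor. For every library dividing by what 1 read is worth (0.824 to 1.14 units) gave whole numbers, within 0.01 read, for 100% of values, so whole reads could be recovered. The authors' deposited columns also hold a log2 fold change, the same as a ratio, and an adjusted p-value. Per the submitters' processing notes, DESeq2 1.33.1, FastQC 0.11.8, R 4.1.2 and the build Sscrofa11.1 were used, with no role or order. The sources used here name no aligner, counting program or strand setting, so reads of overlapping genes can be mixed. Of 63562 rows, all matched a RefSeq gene by accession, which gave positions on Sscrofa11.1, and the row with the highest mean was kept for each of 20653 genes. Transcript lengths were not used here, so levels are compared between libraries and not between genes.

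The tests for normalized values were used, since the file holds no raw counts. limma 3.58.1 (R 4.3.3) with a mean-variance trend was fitted to log2(value + 0.5) of genes reaching 10 normalized counts in 3 or more libraries, without covariates, and was two-sided. It had 5 residual and 3.84 prior degrees of freedom, and adjusted p (Benjamini-Hochberg, all 15661 genes) had a threshold of 0.05. Alternatives were quantile normalization, median centring, rescaling without 3 genes above 1% of the reads, other filters, pseudocounts, rows and thresholds, a robust prior, the replicate number as a block, each library left out, and, for recovered reads, DESeq2 1.42.0, edgeR 4.0.16 and voom. The limma and edgeR fits were tested on simulated counts. The members, lists and tests were chosen with earlier results of these data known. All 35 members are accounted for. Those with the 2 smallest p in each step, or all in steps of up to 3, are given library by library, with MLYCD, HADHA and HADHB added after their values were seen, and outside the set the 2 of smallest p in each list are named, except for 1 gene that is not reported here. The labels do not say that the pigs came from separate litters or batches, so p-values measure the spread between these libraries. Coefficients of variation pool the deviations within both groups.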

Additional observations from a re-analysis of the deposited data

Results flagged for a closer look

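A library far from the other 3 of the S100a1 group was looked for in 34 genes and 8 library scores, 42 groups of values in all, and chance marks about 1 in 20 such groups. The gap to the nearest library was large for its range in 3 cases. SLC27A1 was at 3794 in S100a1 replicate 3 and at 3701 to 3714 in the other 3, a narrow spread in which the gap is small in absolute size. The mean deviation of the activation genes was -0.066 in S100a1 replicate 4, against 0.039 to 0.058 in the other 3. That of the receptors was -0.12 in S100a1 replicate 1, against 0.059 to 0.063. The hrLuc group has 3 libraries and was not examined in this way.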

How the results depend on the processing

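The number of fatty acid genes past the threshold was 0 under every alternative run. Over all genes tested 2 passed, 3 with quantile normalization, 1 with median centring, 89 with DESeq2, 0 with limma-voom, and between 0 and 3 with a library left out, and the cause was not tested. The log2 fold changes that changed sign were all of genes near 0 and never called. With median centring SLC27A1 was at 0.029, ACSL4 at 0.018, ACADVL at 0.047, HADH at 0.038, ETFA at 0.033 and PPARD at 0.00018. On the recovered reads ACADVL was at 0.013 (edgeR), 0.011 (DESeq2) and 0.023 (voom), HADH at 0.0094, 0.0079 and 0.013, and ETFA at 0.0087, 0.0073 and 0.0061, and SLC27A1 was at 0.0013 (edgeR) and 0.0031 (voom). ACOT13 was at -0.0091 with quantile normalization, -0.021 with rescaling and -0.038 with the lowest or middle transcript row. With each library left out SLC27A1 ran from -0.078 to 0.030, FABP3 from -0.19 to 0.075, ACSL4 from -0.11 to 0.034, CPT1A from -0.11 to 0.17, MLYCD from -0.15 to 0.22, ACADVL from -0.10 to 0.16, ACADM from -0.016 to 0.12, ACADS from -0.034 to 0.20, HADHA from -0.015 to 0.22, HADHB from -0.0058 to 0.18, ECHS1 from -0.19 to 0.047, HADH from -0.060 to 0.078, ECI1 from -0.14 to 0.029, DECR1 from -0.12 to 0.041, ETFA from -0.043 to 0.023, ETFDH from -0.032 to 0.18, ACOT13 from -0.087 to 0.076 and UCP2 from -0.23 to 0.017, and the median of the electron transfer genes ran from -0.032 to 0.18. Correlations over genes between same-numbered libraries of the groups were -0.022, -0.075 and 0.082, and those of the other pairs ran from -0.16 to 0.19. With 3 and 4 libraries these values cannot decide whether the numbers mark pairs. With the replicate number as a block 0 genes passed, the median of the 33 genes was 0.076, and ACSL4 was at 0.017, MLYCD at -0.15, ACADVL at 0.057, ECHS1 at 0.0025 and HADH at 0.0083. With 3 and 4 libraries, differences of the size seen in most members lie within the spread between hearts.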
